A study of Mus musculus with 8 samples.

Results

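The genes described here are 43 genes of mouse chromosome 3 named for lying near Siah2, about 10 Mb to each side, out of the 24306 genes that have a named spot on the array. They were taken by gene symbol, and the brightest spot stood for each gene. The RNA came from primary cultures of mouse heart fibroblasts and was read with a single dye (Cy3) on Agilent arrays. The groups were cells labelled Siah knockout in normoxia, wild-type cells in normoxia, cells labelled Siah knockout after 6 h in a chamber at 1% O2, and wild-type cells after the same exposure. Each of these 4 groups held 2 samples, all grown in DMEM with 10% FBS. The label gives neither the family member that was altered nor the allele, strain or age, and the design text calls the samples biological replicates without saying which ones share an animal or a culture. The p-values therefore measure the spread between these samples, and the cells are called knockout-labelled.

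Siah2 encodes a RING-type ubiquitin ligase whose known substrates include the PHD enzymes, which in turn send the hypoxia-inducible factor HIF to degradation when oxygen is present. A gene altered in embryonic stem cells of one mouse strain and bred into another carries a stretch of donor chromosome along with it, and an altered allele can also disturb transcription of its neighbours. Both are known to show as genotype differences among genes that flank a targeted locus, and with a single knockout label they cannot be told apart from a response to loss of the protein. The genes around Siah2 have unrelated jobs: a cluster of receptors for extracellular nucleotides lies on one side, and genes of the endoplasmic reticulum and of translation on the other.

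All 43 genes were on the array. Their mean levels ran between 3.01 and 14.94 on the log2 intensity scale, and 39 of them passed the filter that removed the dimmest 30% of genes by mean. The other 4 lay below its limit of 3.39. They were Tm4sf4, at a mean of 3.04, Clrn1 at 3.34, Gpr171 at 3.01 and Igsf10 at 3.29. Of the 43 genes, 41 lay within the stated distance of Siah2. The RefSeq gene order placed Cp and Hps3 far outside it, with 197 genes of the array between Hps3 and Siah2, so counts are also given without that pair. The RefSeq promoter windows of Cp (chr3:19956804-19957103) and Hps3 (chr3:20035261-20035560) on GRCm38.p6 stand far from that of Selenot (chr3:58576386-58576685), the listed gene next to Siah2 on its lower side. Of the 41 genes, 9 lay on the Selenot side, out to Tm4sf1, and 32 on the Clrn1 side, out to Mfsd1.

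Some features of the whole set of samples bear on these genes. All 20 genes of a list of HIF targets were higher in hypoxia on average, with a median log2 difference of 1.22. Of these, 17 had every hypoxia sample above every normoxia sample, against 1.35% of all genes. Every one of 17 markers of macrophages and leukocytes stood below wild type in knockout-labelled cells, with a median log2 difference of -1.22. Of these markers, 15 were lower without overlap between genotypes, against 4.85% of all genes. The mean log2 level of those markers lay between 10.74 and 11.71 in knockout-labelled samples and between 12.12 and 12.62 in wild-type samples. The 12 fibroblast markers had mean log2 levels between 12.96 and 13.24 in knockout-labelled cells and between 13.18 and 13.33 in wild-type cells. Behind these means, 4 markers stood above and 8 below wild type, and limma called 0. Thy1 at 1.05 (SE 0.18) was higher without overlap, and Dcn at -0.79 (SE 0.14) and Lum at -1.25 (SE 0.38) lower. That was 25% of the markers, against 8.82% of all genes apart either way. Smooth muscle and pericyte markers averaged between 9.12 and 9.96 in knockout-labelled samples and between 10.18 and 10.61 in wild-type samples, without overlap. Of these 8 markers, 2 stood above and 6 below wild type, and limma called 0. Myh11 at -1.42 (SE 0.25) and Des at -2.12 (SE 0.41) were lower without overlap. That was 25% of the markers, against 8.82% of all genes. Of the cardiomyocyte markers, Myh6, Tnni3 and Pln fell below the filter. All 8 together averaged between 5.78 and 5.99 in knockout-labelled cells and between 5.47 and 5.74 in wild-type cells, without overlap. Of the 5 tested, 4 stood above and 1 below wild type, and limma called 0. Tnnt2 at 1.85 (SE 0.31) and Ryr2 at 0.75 (SE 0.22) were higher without overlap, 40% of the 5. Endothelial markers averaged between 6.14 and 6.26 in knockout-labelled cells and between 6.07 and 6.25 in wild-type cells. Of these 10 markers, 4 stood above and 6 below wild type, and limma called 0. Only Emcn did not overlap, at 1.26 (SE 0.19) above wild type, which was 10% of the markers. The Y-linked Eif2s3y lay between 3.39 and 4.01 in the knockout-labelled samples and between 8.80 and 9.10 in the wild-type samples. In limma Eif2s3y was called in normoxia (adjusted p = 0.00562), in hypoxia (0.00402) and for the mean over oxygen levels (0.000553). It was the 1 gene of 17014 called between genotypes in normoxia, and likewise in hypoxia. Xist, transcribed from the inactive X chromosome, stood 1.58 (SE 0.22, adjusted p = 0.0951) above wild type in knockout-labelled cells, while the Y-linked Uty and Kdm5d overlapped between genotypes, at -0.41 (SE 0.23, adjusted p = 0.654) and -0.09 (SE 0.21, adjusted p = 0.938). The part of these differences in any result below was not tested except where a value is given.

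At the locus itself, Siah2 read 6.60 and 7.39 in knockout-labelled normoxia, against 9.04 and 8.71 in wild-type normoxia. In hypoxia it gave 9.29 and 8.87 in knockout-labelled cells, against 9.55 and 8.96 in wild-type cells. The genotypes were thus apart in normoxia and overlapped in hypoxia. The log2 difference between genotypes was -1.88 (SE 0.35) in normoxia and -0.18 (SE 0.35) in hypoxia, with adjusted p of 0.415 and 1.0 from limma with Benjamini-Hochberg adjustment over 17014 genes. A single spot stood for Siah2, and where it lies relative to any deleted part is not given, so its signal checks the label only as far as that spot reads the altered transcript. The other Siah genes lie outside the interval. Siah1a stood 0.28 (SE 0.13, adjusted p = 0.565), Siah1b 0.41 (SE 0.15, adjusted p = 0.426) and Siah3 0.41 (SE 0.54, adjusted p = 0.877) above wild type in knockout-labelled cells as the mean over oxygen levels, and limma called 0 of them.

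The gene next to Siah2 on the Selenot side gave the widest genotype difference in the neighbourhood. Erich6, which is not on the list, encodes a glutamate-rich protein and had 0 genes of the array between it and Siah2. It read 6.32 and 6.66 in knockout-labelled normoxia, against 3.55 and 4.01 in wild-type normoxia, while knockout-labelled hypoxia gave 6.36 and 7.08, against 3.26 and 4.94 in wild-type hypoxia. All 4 knockout-labelled samples lay above all 4 wild-type samples. The log2 difference was 2.71 (SE 0.56) in normoxia and 2.62 (SE 0.56) in hypoxia, and the mean of both was 2.66 (SE 0.40, 95% interval 1.70 to 3.63, adjusted p = 0.108 in limma). The difference did not pass the adjusted threshold of 0.05. It lay between 2.25 and 3.08 over 16 other settings of the processing, with adjusted p between 0.0536 and 0.310, and was called in 0 of them. Hypoxia minus normoxia was 0.28 (SE 0.40, adjusted p = 1.0) for Erich6, which rested on 1 spot.

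**Figure D1:**
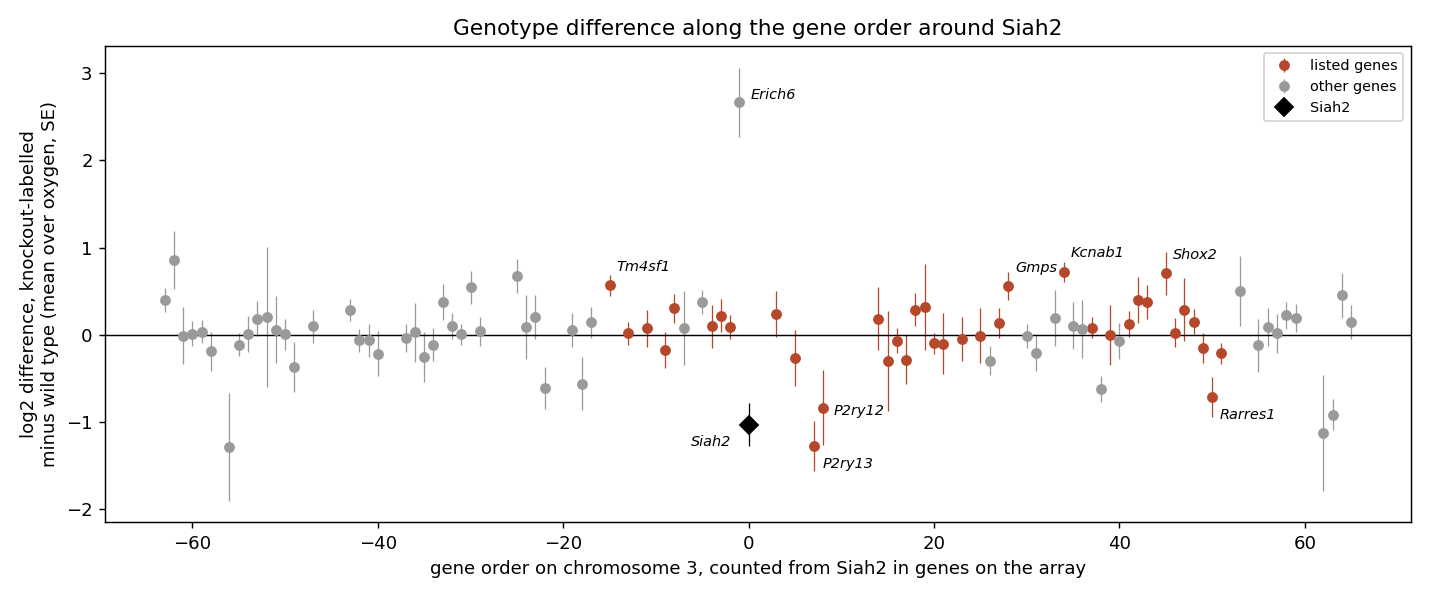
Genotype difference along the gene order of chromosome 3. The x axis counts genes on the array from Siah2 at 0, the y axis is the log2 difference of knockout-labelled minus wild-type cells as the mean over oxygen levels, and bars are limma's SE. Erich6, next to Siah2, stands at 2.66, while the listed genes lie between -1.28 for P2ry13 and 0.72 for Kcnab1. Cp and Hps3 lie beyond the left edge.

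Promoter windows of 300 bases, each with 250 bases before an annotated start and 50 after it, are shown for Erich6 as the neighbour with the widest difference, for Kcnab1 and P2ry13 as the listed genes with the largest differences in either direction, and for Ptx3 and Tiparp, whose levels were higher in hypoxia on average. The sequences are RefSeq's on GRCm38.p6, 5′ to 3′ on the gene's own strand. Capitals mark ACGTG or GCGTG, the core of the hypoxia response element to which HIF binds, read on both strands, so that a match on the other strand appears as CACGT or CACGC. The windows lie at chr3:58637158-58637457 on the minus strand for Erich6, chr3:64948962-64949261 on the plus strand for the first of 3 annotated starts of Kcnab1, chr3:59210833-59211132 on the minus strand for P2ry13, chr3:66219637-66219936 on the plus strand for Ptx3 and chr3:65528197-65528496 on the plus strand for Tiparp.
Erich6: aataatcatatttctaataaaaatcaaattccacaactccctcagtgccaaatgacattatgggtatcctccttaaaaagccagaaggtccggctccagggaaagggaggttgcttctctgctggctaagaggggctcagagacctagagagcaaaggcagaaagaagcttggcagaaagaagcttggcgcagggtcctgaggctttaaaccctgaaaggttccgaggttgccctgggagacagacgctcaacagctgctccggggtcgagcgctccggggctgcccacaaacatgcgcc
Kcnab1: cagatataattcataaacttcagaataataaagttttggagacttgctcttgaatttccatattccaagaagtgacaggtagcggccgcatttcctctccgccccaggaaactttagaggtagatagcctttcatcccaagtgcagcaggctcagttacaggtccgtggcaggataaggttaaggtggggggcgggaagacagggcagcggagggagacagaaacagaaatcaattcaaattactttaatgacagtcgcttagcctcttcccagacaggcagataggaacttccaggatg
P2ry13: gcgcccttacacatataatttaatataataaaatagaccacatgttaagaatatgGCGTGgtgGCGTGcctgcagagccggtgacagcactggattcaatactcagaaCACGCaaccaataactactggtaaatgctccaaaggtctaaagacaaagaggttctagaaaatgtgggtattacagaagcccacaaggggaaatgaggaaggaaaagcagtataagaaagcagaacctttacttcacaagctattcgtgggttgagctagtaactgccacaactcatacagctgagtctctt
Ptx3: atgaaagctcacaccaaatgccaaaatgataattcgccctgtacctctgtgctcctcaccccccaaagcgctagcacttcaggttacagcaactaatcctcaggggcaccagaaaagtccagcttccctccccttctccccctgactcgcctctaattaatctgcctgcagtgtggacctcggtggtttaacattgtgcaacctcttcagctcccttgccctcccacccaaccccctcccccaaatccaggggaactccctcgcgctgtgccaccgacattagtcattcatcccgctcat
Tiparp: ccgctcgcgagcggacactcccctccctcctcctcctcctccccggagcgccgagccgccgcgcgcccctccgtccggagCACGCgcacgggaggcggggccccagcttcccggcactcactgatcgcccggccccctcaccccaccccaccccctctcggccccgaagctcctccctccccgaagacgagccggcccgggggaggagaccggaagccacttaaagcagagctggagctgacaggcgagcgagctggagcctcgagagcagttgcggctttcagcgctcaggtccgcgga
The P2ry13 window held 3 matches and that of Tiparp 1, while those shown for Erich6, Kcnab1 and Ptx3 held 0. Among the windows of the 3 annotated starts of Kcnab1, the one with the most matches held 2. Of the listed genes, 40 had a window in the table, with 52 windows in all, and 31 of these (59.6%) held a match, against 43.8% of all 32851 windows of that length. A match describes the letters of the window and is not a binding site.

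The comparison of genotypes asks whether the flanking genes differ along with the Siah allele. In limma, 0 of the 39 listed genes tested were called at an adjusted p under 0.05 in normoxia, in hypoxia or for the mean over oxygen levels. Over all genes, 0.00588% were called in normoxia, 0.00588% in hypoxia and 0.047% for the mean. At an unadjusted p under 0.05, the listed genes gave 3 higher and 2 lower in normoxia (6.48% of all genes in either direction), 2 higher and 2 lower in hypoxia (6.24%), and 4 higher and 3 lower for the mean (9.95%). The median log2 difference over the listed genes was 0.09 in normoxia, 0.05 in hypoxia and 0.08 for the mean, beside 0.03, 0.02 and 0.03 over all genes. Each median turned negative when 1 sample was left out: in normoxia to -0.0122 without knockout-labelled replicate 1, in hypoxia to -0.0228 without knockout-labelled replicate 2 and -0.0168 without wild-type replicate 1, and for the mean to -0.000808 without replicate 2 of knockout-labelled hypoxia and -0.000123 without replicate 2 of wild-type normoxia. For the mean, 23 listed genes stood above wild type and 16 below.

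A further count took genes whose 4 knockout-labelled samples all lay above, or all below, the 4 wild-type samples. Among the 39 listed genes, Tm4sf1, Gmps, Kcnab1 and Shox2 were higher in this sense and P2ry13 and Hps3 lower, 6 genes or 15.4%. Over all genes 3.96% were higher and 4.85% lower, 8.82% together. Without Cp and Hps3 the count was 4 higher and 1 lower of 37 (13.5%). The unlisted genes between the outermost listed genes gave 14 higher and 6 lower of 129 (15.5%). That stretch begins at Cp and has 182 genes of the array between Hps3 and Tm4sf1, so much of it lies outside the stated distance. The rest of chromosome 3 gave 27 higher and 25 lower of 667 (7.80%). Unlisted genes within the stated distance of Siah2 gave 5 higher and 2 lower of 47 (14.9%). These 47 are not a separate set, since each is also counted in the 129 or the 667. These shares describe the lists, and the difference between them was not tested. Same-numbered samples varied together across oxygen levels, at correlations of 0.338 in knockout-labelled and 0.308 in wild-type cells. The 4 samples of a genotype may therefore not be independent, although the count and the SE of the mean over oxygen levels take them so. Within normoxia alone, where 2 samples face 2, 8 of the 39 listed genes were higher and 5 lower without overlap (33.3%), beside 16.7% and 15% of all genes (31.7% together). Within hypoxia alone 8 were higher and 6 lower (35.9%), beside 16.4% and 15.7% of all genes (32% together).

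**Figure D2:**
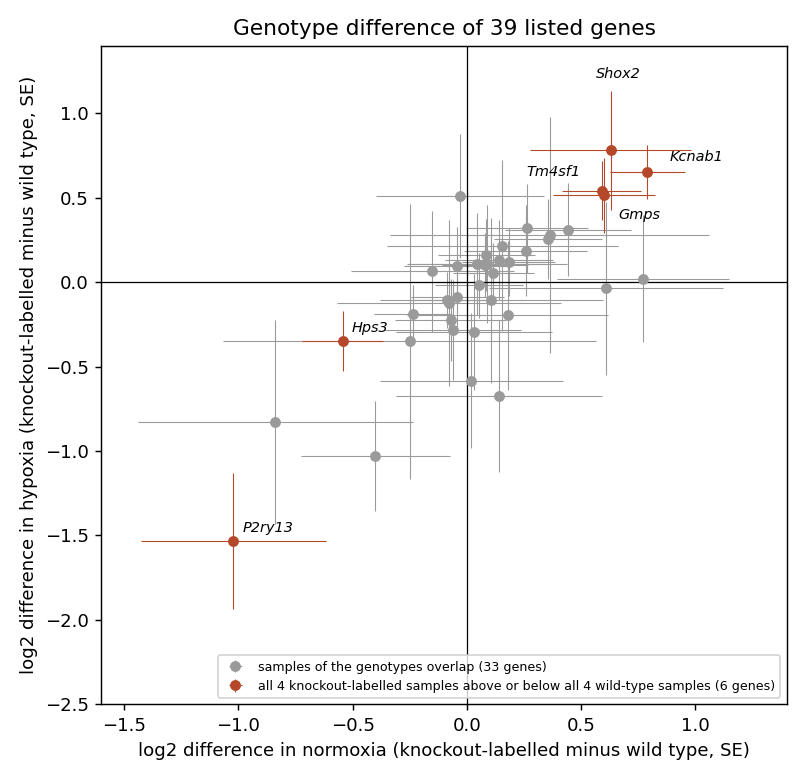
Genotype difference of the 39 listed genes that passed the filter, in normoxia on the x axis and in hypoxia on the y axis, both as log2 of knockout-labelled minus wild-type cells with limma's SE. The 6 genes in red, whose genotypes did not overlap over all 8 samples, differ in the same direction at both oxygen levels, as that choice of genes requires. Most of the other 33 lie near 0 within their SE.

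On the Selenot side the genes are mostly of membrane traffic, translation and the cell surface, and 8 of 9 passed the filter. Tm4sf1, a tetraspan surface protein known from endothelial and tumour cells, was the brightest listed gene. It read 15.28 and 15.21 in knockout-labelled normoxia, against 14.74 and 14.56 in wild-type normoxia. In hypoxia the values were 15.18 and 15.22 in knockout-labelled cells, against 14.74 and 14.58 in wild-type cells. Every knockout-labelled sample lay above every wild-type sample, with pairs of samples closer together than the genotypes. The log2 difference was 0.59 (SE 0.17) in normoxia and 0.54 (SE 0.17) in hypoxia, 0.57 for the mean (SE 0.12, adjusted p = 0.196 in limma), and hypoxia minus normoxia was -0.02 (SE 0.12). It was not called, but a fit with a variance trend called it, at an adjusted p of 0.0306.

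The listed genes closest to Siah2 on that side overlapped between genotypes over all 8 samples. Selenot, a selenoprotein of the endoplasmic reticulum, read 11.77 and 11.54 in knockout-labelled normoxia, against 11.45 and 11.70 in wild-type normoxia, while knockout-labelled hypoxia gave 11.70 and 11.57, against 11.49 and 11.57 in wild-type hypoxia. The genotypes overlapped in normoxia, both knockout-labelled samples lay just above both wild-type samples in hypoxia, and the mean log2 difference was 0.09 (SE 0.13, adjusted p = 0.894). Eif2a, an initiation factor separate from the eIF2 complex, read 7.86 and 8.51 in knockout-labelled normoxia, against 7.86 and 8.001 in wild-type normoxia, while knockout-labelled hypoxia gave 8.28 and 8.07, against 8.15 and 7.83 in wild-type hypoxia. Its highest value was in a knockout-labelled sample and its lowest in a wild-type sample, with a mean difference of 0.22 (SE 0.19, adjusted p = 0.794). Serp1, which stabilises membrane proteins at the translocon of the endoplasmic reticulum, starts head to head with Eif2a, and their 300-base windows share 36 bases. It read 12.68 and 13.18 in knockout-labelled normoxia, against 13.11 and 12.57 in wild-type normoxia. In hypoxia the values were 12.41 and 13.06 in knockout-labelled cells, against 12.89 and 12.37 in wild-type cells. Replicate 1 was the lower of the pair in knockout-labelled cells and the higher one in wild-type cells, at both oxygen levels, and the mean difference was 0.10 (SE 0.25, adjusted p = 0.943).

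Further out, Pfn2, an actin-binding profilin, read 11.52 and 11.42 in knockout-labelled normoxia, against 10.85 and 11.38 in wild-type normoxia, while knockout-labelled hypoxia gave 11.52 and 11.24, against 11.06 and 11.19 in wild-type hypoxia. It was higher in knockout-labelled cells within each oxygen level and overlapped over all 8 samples, with a mean difference of 0.31 (SE 0.17, adjusted p = 0.643). Rnf13, an endosomal RING ubiquitin ligase, read 10.39 and 9.97 in knockout-labelled normoxia, against 9.96 and 10.52 in wild-type normoxia, while knockout-labelled hypoxia gave 10.36 and 9.89, against 10.27 and 10.54 in wild-type hypoxia. The genotypes overlapped, with a mean difference of -0.17 (SE 0.21, adjusted p = 0.864). Wwtr1, the Hippo pathway coactivator TAZ, lay between 13.05 and 13.40 in all 8 samples and differed by 0.02 (SE 0.14, adjusted p = 0.982). Of 18 target genes of YAP and TAZ from a list, 13 stood above and 5 below wild type in knockout-labelled cells, with a median of 0.22. In limma 0 were called and 1 had an unadjusted p under 0.05, beside 0.047% and 9.95% of all genes. Among the YAP and TAZ targets, Ccn1 differed by 0.61 (SE 0.23, adjusted p = 0.439) and Ankrd1 by 0.71 (SE 0.31, adjusted p = 0.538). Commd2, a COMM domain protein, differed by 0.08 (SE 0.21, adjusted p = 0.948). For the secretory genes, 16 genes of the unfolded protein response and secretory pathway had a median of 0.03. Of these, 0 were called and 0 had an unadjusted p under 0.05, beside the same shares of all genes.

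On the Clrn1 side, the nearest genes to Siah2 were dim. Clrn1, the gene of the hair-cell protein clarin 1, read 3.46 and 4.10 in knockout-labelled normoxia, against 3.19 and 3.20 in wild-type normoxia, while knockout-labelled hypoxia gave 3.26 and 2.88, against 3.51 and 3.08 in wild-type hypoxia. The genotypes of Clrn1 overlapped over all 8 samples. Gpr171, a G-protein-coupled receptor found on lymphocytes, read 2.87 and 2.86 in knockout-labelled normoxia, against 3.03 and 3.45 in wild-type normoxia, while knockout-labelled hypoxia gave 3.14 and 3.09, against 2.56 and 3.06 in wild-type hypoxia. Neither was tested, since both were below the filter, and the same held for the immunoglobulin superfamily gene Igsf10, between 2.87 and 3.69 in all 8 samples, and on the other side for Tm4sf4, a relative of Tm4sf1, between 2.49 and 3.84 in all 8 samples. Med12l, a paralogue of the Mediator subunit Med12, read 4.11 and 3.04 in knockout-labelled normoxia, against 3.77 and 3.43 in wild-type normoxia. In hypoxia the values were 3.95 and 3.68 in knockout-labelled cells, against 3.19 and 3.42 in wild-type cells. Its genotypes overlapped over all 8 samples, at a mean difference of 0.24 (SE 0.26, adjusted p = 0.845).

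The receptors for extracellular nucleotides come next. P2ry13, a receptor for ADP, read 4.82 and 4.01 in knockout-labelled normoxia, against 5.95 and 4.93 in wild-type normoxia, while knockout-labelled hypoxia gave 3.68 and 3.84, against 5.31 and 5.28 in wild-type hypoxia. All 4 knockout-labelled samples were below all 4 wild-type samples, though the nearest pair was 4.82 in a knockout-labelled and 4.93 in a wild-type sample. The log2 difference was -1.02 (SE 0.40) in normoxia and -1.53 (SE 0.40) in hypoxia, and -1.28 for the mean (SE 0.29, adjusted p = 0.205 in limma), the most negative among the listed genes. P2ry12, the ADP receptor of platelets and microglia, read 5.07 and 4.37 in knockout-labelled normoxia, against 5.11 and 6.00 in wild-type normoxia, while knockout-labelled hypoxia gave 4.53 and 3.44, against 4.15 and 5.48 in wild-type hypoxia. Its genotypes were apart in normoxia and overlapped in hypoxia, with a mean difference of -0.83 (SE 0.43, adjusted p = 0.613).

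The genotypes of the other listed receptors overlapped over all 8 samples. P2ry14, the receptor for UDP-glucose, read 3.66 and 2.87 in knockout-labelled normoxia, against 3.06 and 3.18 in wild-type normoxia, while knockout-labelled hypoxia gave 3.79 and 2.89, against 4.46 and 3.56 in wild-type hypoxia. The highest values were in wild-type hypoxia, and the mean difference was -0.27 (SE 0.32, adjusted p = 0.863). P2ry1, another ADP receptor, differed by -0.28 (SE 0.28, adjusted p = 0.831 in limma) and was lower in both knockout-labelled hypoxia samples than in wild-type hypoxia. Sucnr1, the succinate receptor, differed by -0.30 (SE 0.58, adjusted p = 0.92). Gpr149, an orphan receptor, differed by -0.10 (SE 0.35, adjusted p = 0.958).

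The samples with low P2ry13 were also those with low macrophage and leukocyte markers. Csf1r, the receptor for macrophage colony-stimulating factor, averaged 12.30 in knockout-labelled cells and 13.94 in wild-type cells, a log2 difference of -1.64 (SE 0.27, adjusted p = 0.121). Of 12 receptors of the P2Y family and its relatives encoded outside the interval, P2ry4, Gpr174 and Oxgr1 were below the filter. Of the other 9, 3 stood above and 6 below wild type, with a median of -0.16, and 3 were lower without overlap, against 4.85% of all genes. The smallest p values among the 9 belonged to Gpr34, known from microglia and macrophages, at -1.57 (SE 0.38, adjusted p = 0.225), P2ry10b at -0.52 (SE 0.18, adjusted p = 0.401), Gpr183, an oxysterol receptor of immune cells, at -0.97 (SE 0.34, adjusted p = 0.413), and P2ry6, a UDP receptor, at -1.11 (SE 0.40, adjusted p = 0.420). Within the knockout-labelled cells, replicate 1 had more marker signal than replicate 2 at both oxygen levels (11.68 and 10.74 in normoxia, 11.71 and 10.76 in hypoxia), and P2ry12 had the same order while P2ry13 had it in normoxia alone. In wild-type cells replicate 2 had more marker signal than replicate 1 (12.62 and 12.18 in normoxia, 12.60 and 12.12 in hypoxia), and so did P2ry12, while P2ry13 ran the other way. The part of the macrophage markers in the P2ry13 and P2ry12 values was not tested, and in bulk RNA fewer cells of a type and less RNA per cell cannot be told apart.

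**Figure D3:**
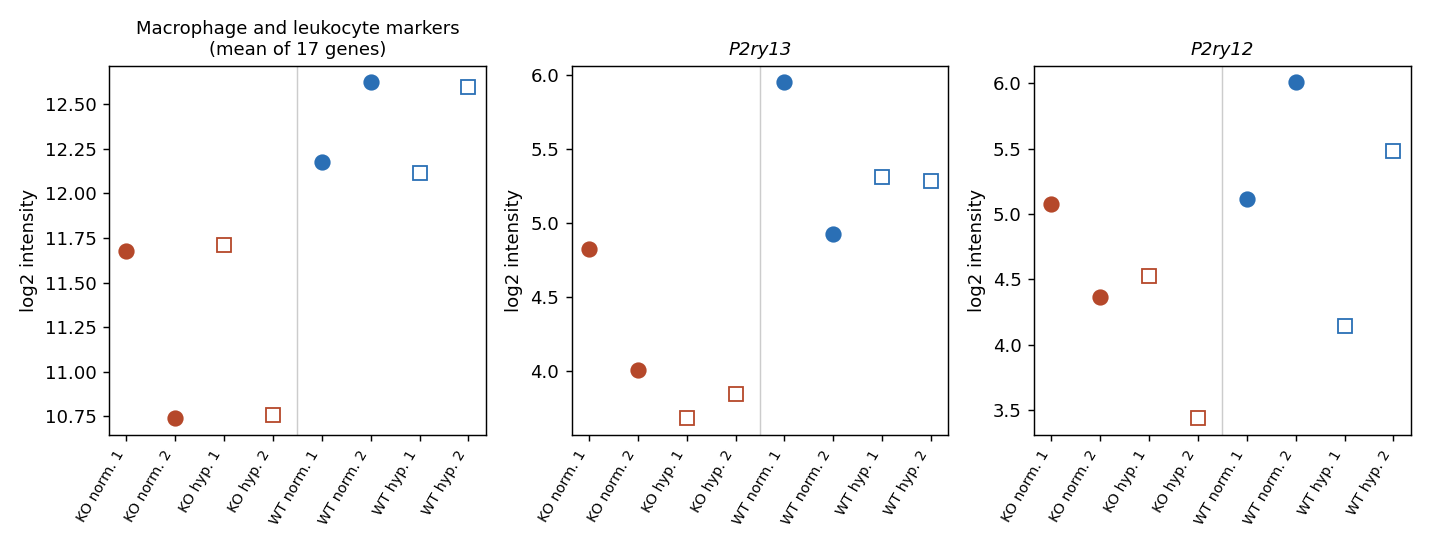
Mean log2 level of 17 macrophage and leukocyte markers, and log2 intensities of P2ry13 and P2ry12, in each of the 8 samples. Red marks knockout-labelled (KO) and blue wild-type (WT) samples, filled circles normoxia (norm.) and open squares hypoxia (hyp.), and each panel has its own scale, which does not start at 0. The markers run from 10.74 to 11.71 in knockout-labelled and from 12.12 to 12.62 in wild-type samples, P2ry13 is also apart by genotype, and P2ry12 overlaps.

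The middle of the Clrn1 side held genes whose genotypes overlapped over all 8 samples. Within hypoxia alone Dhx36 was lower and Rap2b higher in knockout-labelled cells without overlap, and within normoxia alone Mme was lower. Mbnl1, a splicing regulator, differed by -0.07 (SE 0.14, adjusted p = 0.933), and Dhx36, a helicase of G-quadruplex structures, by -0.10 (SE 0.12, adjusted p = 0.863). Mme, the surface peptidase neprilysin, differed by -0.04 (SE 0.25, adjusted p = 0.976). Rap2b, a small GTPase, differed by 0.29 (SE 0.19, adjusted p = 0.717), and Arhgef26, an exchange factor for RhoG, by 0.32 (SE 0.49, adjusted p = 0.901). Slc33a1, the acetyl-CoA transporter of the endoplasmic reticulum, differed by 0.14 (SE 0.17, adjusted p = 0.864). The dim Aadac and Plch1 differed by 0.19 (SE 0.36, adjusted p = 0.919) and -0.01 (SE 0.31, adjusted p = 0.996).

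Farther along the same side, 3 genes were higher in all knockout-labelled samples. Gmps, the enzyme that makes GMP from XMP, read 7.92 and 8.32 in knockout-labelled normoxia, against 7.54 and 7.51 in wild-type normoxia. In hypoxia the values were 8.19 and 8.14 in knockout-labelled cells, against 7.84 and 7.45 in wild-type cells. The genotypes did not overlap, with a log2 difference of 0.60 (SE 0.22) in normoxia, 0.52 (SE 0.22) in hypoxia and 0.56 for the mean (SE 0.16, adjusted p = 0.294). Kcnab1, a cytoplasmic beta subunit of voltage-gated potassium channels, read 10.80 and 10.90 in knockout-labelled normoxia, against 10.07 and 10.05 in wild-type normoxia, while knockout-labelled hypoxia gave 10.55 and 10.64, against 9.96 and 9.93 in wild-type hypoxia. The gap between the genotypes was several times the gap within any pair. Its log2 difference was 0.79 (SE 0.16) in normoxia, 0.65 (SE 0.16) in hypoxia and 0.72 for the mean (SE 0.11, 95% interval 0.44 to 1.00, adjusted p = 0.118), the smallest adjusted p among the listed genes. It was not called in limma here, but was called in 2 of 16 other settings, with a variance trend (adjusted p = 0.0456) and with a crossed replicate block (adjusted p = 0.0325). The crossed block joined knockout-labelled replicate 1 with wild-type replicate 2, a pairing that no label gives. With it 453 genes were called in all, against 8 in the main fit. A second spot for Kcnab1, with a mean of only 3.98, stood 0.84 above wild type in knockout-labelled cells and overlapped between genotypes.

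Shox2, a homeobox factor known from the sinoatrial node, was the third. It read 9.01 and 8.41 in knockout-labelled normoxia, against 8.14 and 8.02 in wild-type normoxia, while knockout-labelled hypoxia gave 8.93 and 8.46, against 7.51 and 8.32 in wild-type hypoxia. The lowest knockout-labelled sample, at 8.41, stood just above the highest wild-type sample, at 8.32. The log2 difference was 0.63 (SE 0.35) in normoxia, 0.78 (SE 0.35) in hypoxia and 0.71 for the mean (SE 0.25, adjusted p = 0.413). Between Gmps and Shox2 the list also holds Ssr3, a subunit of the translocon-associated protein complex, which differed by 0.08 (SE 0.13, adjusted p = 0.894). Ccnl1, a cyclin tied to splicing, differed by 0.12 (SE 0.15, adjusted p = 0.865). Tiparp, an ADP-ribosyltransferase induced by the aryl hydrocarbon receptor, overlapped between genotypes. Ptx3 differed by 0.38 (SE 0.19, adjusted p = 0.619 in limma). It overlapped over all 8 samples and was higher in knockout-labelled cells within normoxia alone.

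Veph1, the mammalian relative of the fly gene melted, was higher in knockout-labelled cells in normoxia alone. It read 4.44 and 4.70 in knockout-labelled normoxia, against 3.87 and 3.73 in wild-type normoxia, while knockout-labelled hypoxia gave 4.86 and 3.95, against 4.76 and 4.01 in wild-type hypoxia. The normoxia difference was 0.77 (SE 0.38, adjusted p = 0.834) and 0.32 with the mean over the spots of Veph1, the hypoxia difference 0.02 (SE 0.38, adjusted p = 1.0), and the difference between them -0.75 (SE 0.53, adjusted p = 1.0). Rarres1, a retinoid-responsive membrane protein, read 6.53 and 6.06 in knockout-labelled normoxia, against 6.38 and 7.001 in wild-type normoxia. In hypoxia the values were 5.91 and 5.27 in knockout-labelled cells, against 6.58 and 6.66 in wild-type cells. It overlapped in normoxia, at -0.40 (SE 0.33), and was lower in both knockout-labelled hypoxia samples, at -1.03 (SE 0.33, adjusted p = 0.664). The mean difference was -0.72 (SE 0.23, adjusted p = 0.362).

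The remaining genes at the far end of the Clrn1 side overlapped between genotypes over all 8 samples, though Gfm1 was higher in knockout-labelled cells within normoxia alone. Rsrc1, a splicing-related protein, differed by 0.02 (SE 0.16, adjusted p = 0.979), Mlf1, a gene first known from myeloid leukaemia, by 0.29 (SE 0.36, adjusted p = 0.871), and Gfm1, a mitochondrial elongation factor, by 0.15 (SE 0.14, adjusted p = 0.818). Lxn, the carboxypeptidase inhibitor latexin, differed by -0.15 (SE 0.17, adjusted p = 0.86). The outermost gene, the lysosomal transporter gene Mfsd1, differed by -0.21 (SE 0.12, adjusted p = 0.667). Mfsd1 was lower in knockout-labelled cells within each oxygen level but overlapped over all 8 samples.

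The listed genes that the gene order places far from Siah2 gave 1 gene apart by genotype. Hps3, a subunit of the BLOC-2 complex that builds lysosome-related organelles, read 7.55 and 7.52 in knockout-labelled normoxia, against 7.96 and 8.19 in wild-type normoxia, while knockout-labelled hypoxia gave 7.51 and 7.46, against 7.77 and 7.90 in wild-type hypoxia. Every knockout-labelled sample was below every wild-type sample, at -0.54 (SE 0.18) in normoxia, -0.35 (SE 0.18) in hypoxia and -0.45 for the mean (SE 0.12, adjusted p = 0.293). With the mean over its spots the normoxia difference was -0.14 and the mean difference -0.28, and its second spot, dim at a mean of 3.69, stood 0.12 above wild type. Its neighbour Cp, the ferroxidase ceruloplasmin, overlapped and differed by -0.13 (SE 0.24, adjusted p = 0.914).

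**Figure D4:**
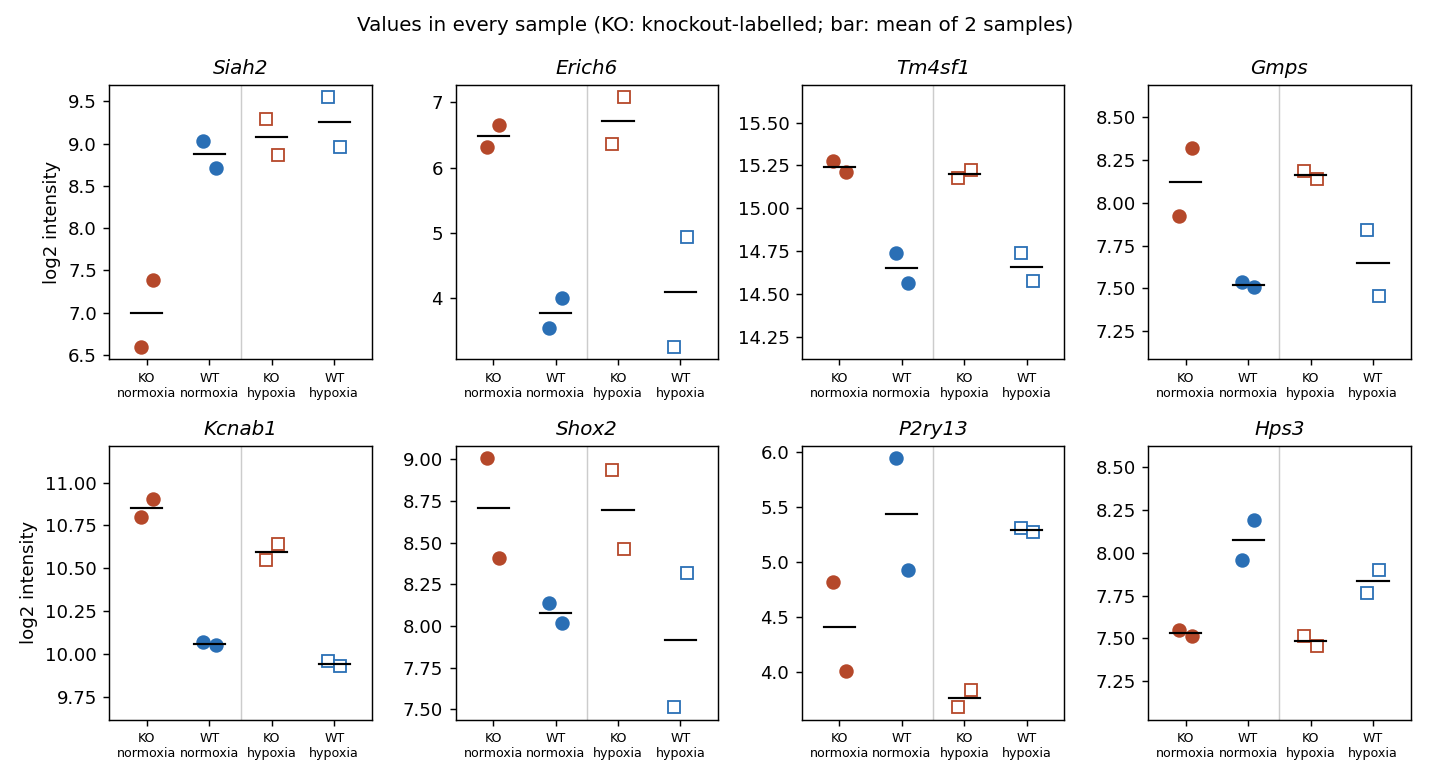
Log2 intensity of Siah2, its unlisted neighbour Erich6 and the 6 listed genes whose genotypes did not overlap, in each of the 8 samples. KO is knockout-labelled (red) and WT wild type (blue), filled circles are normoxia and open squares hypoxia, bars are means of 2 samples, and each panel has its own scale, which does not start at 0. Siah2 is low in the 2 knockout-labelled normoxia samples alone, at 6.60 and 7.39. The other 7 genes keep their genotype order at both oxygen levels, as their lack of overlap over all 8 samples requires.

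Of the unlisted genes between the outermost listed ones, 129 were tested and 0 were called in limma for any genotype comparison. At an unadjusted p under 0.05 for the mean, 8 were higher and 5 lower, beside 9.95% of all genes in either direction. Their median was 0.06, with differences between -1.28 and 2.66. Besides Erich6, the genes with the smallest p in a genotype comparison were Gpr160, Pabpc4l and 4931440P22Rik. Gpr160, a G-protein-coupled receptor gene 156 array genes away from Siah2, differed by -1.06 for the mean (SE 0.25, adjusted p = 0.215). Pabpc4l, related to the poly(A)-binding proteins and 66 genes away, differed by -0.95 in normoxia (SE 0.23, adjusted p = 0.520), and 4931440P22Rik, 37 genes away, by -0.94 in hypoxia (SE 0.21, adjusted p = 0.485). None of these lay next to Siah2.

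A gene's spots did not all repeat its pattern. Of the 43 listed genes, 19 had 1 spot and 24 had more, 46 further spots in all. Of these, 28 were above the filter, and 0 of them had all knockout-labelled samples above, or all below, the wild-type samples. Among the 6 genes apart by genotype, Tm4sf1, Gmps, Shox2 and P2ry13 had 1 spot each, Kcnab1 had 2 and Hps3 had 3, so most of these differences had no second spot to set beside them.

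The response to low oxygen was the second question. In limma, 0 of the 39 listed genes were called for hypoxia against normoxia in knockout-labelled cells, in wild-type cells or as the mean, and 0% of all genes were called in each. At an unadjusted p under 0.05, 0 listed genes passed in any of the 3, against 2.6% of all genes in knockout-labelled cells, 3.62% in wild-type cells and 3.76% for the mean. The median log2 difference over the listed genes was -0.06 in knockout-labelled cells, -0.01 in wild-type cells and -0.03 for the mean, beside -0.02, -0.01 and -0.01 over all genes. Only Ptx3 had every hypoxia sample above every normoxia sample, 1 of 39 listed genes, against 1.35% of all genes, and 0 were lower without overlap, against 0.817% of all genes (2.16% in either direction). Within knockout-labelled cells alone, where 2 samples face 2, 1 listed gene was higher and 8 were lower without overlap (23.1%), beside 10.2% and 11.4% of all genes (21.6% together). Within wild-type cells alone 5 were higher and 5 lower (25.6%), beside 11.6% and 11.6% of all genes (23.2% together). Hps3, Dhx36 and Kcnab1 were among the lower genes in both genotypes, and Ptx3 was the gene higher in both.

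Ptx3, a secreted pentraxin of innate immunity, read 13.57 and 12.96 in knockout-labelled hypoxia, against 12.91 and 12.85 in knockout-labelled normoxia, and 12.92 and 12.98 in wild-type hypoxia, against 12.18 and 12.69 in wild-type normoxia. The lowest hypoxia sample, at 12.92, was just above the highest normoxia sample, at 12.91. The mean log2 difference was 0.45 (SE 0.19, adjusted p = 1.0). Tiparp read 9.77 and 10.09 in knockout-labelled hypoxia, against 8.79 and 10.07 in knockout-labelled normoxia. In wild-type cells it read 10.06 and 10.01 in hypoxia, against 9.80 and 8.84 in normoxia. Within wild-type cells both hypoxia samples of Tiparp lay above both normoxia samples. Within knockout-labelled cells the oxygen levels overlapped, with 10.07 in normoxia above 9.77 in hypoxia. They also overlapped over all 8 samples, and the mean difference was 0.61 (SE 0.35, adjusted p = 1.0).

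The other large averages came from dim receptor genes and from Rarres1. P2ry14 differed by 0.48 (SE 0.32) for hypoxia minus normoxia, with the high values in wild-type hypoxia, and by 0.11 with the mean over its spots. P2ry12 differed by -0.74 (SE 0.43), P2ry13 by -0.40 (SE 0.29) and Rarres1 by -0.39 (SE 0.23), and the adjusted p was 1.0 for each in limma. As a measure beside these values, the macrophage and leukocyte markers had a median of -0.02 for hypoxia minus normoxia.

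**Figure D5:**
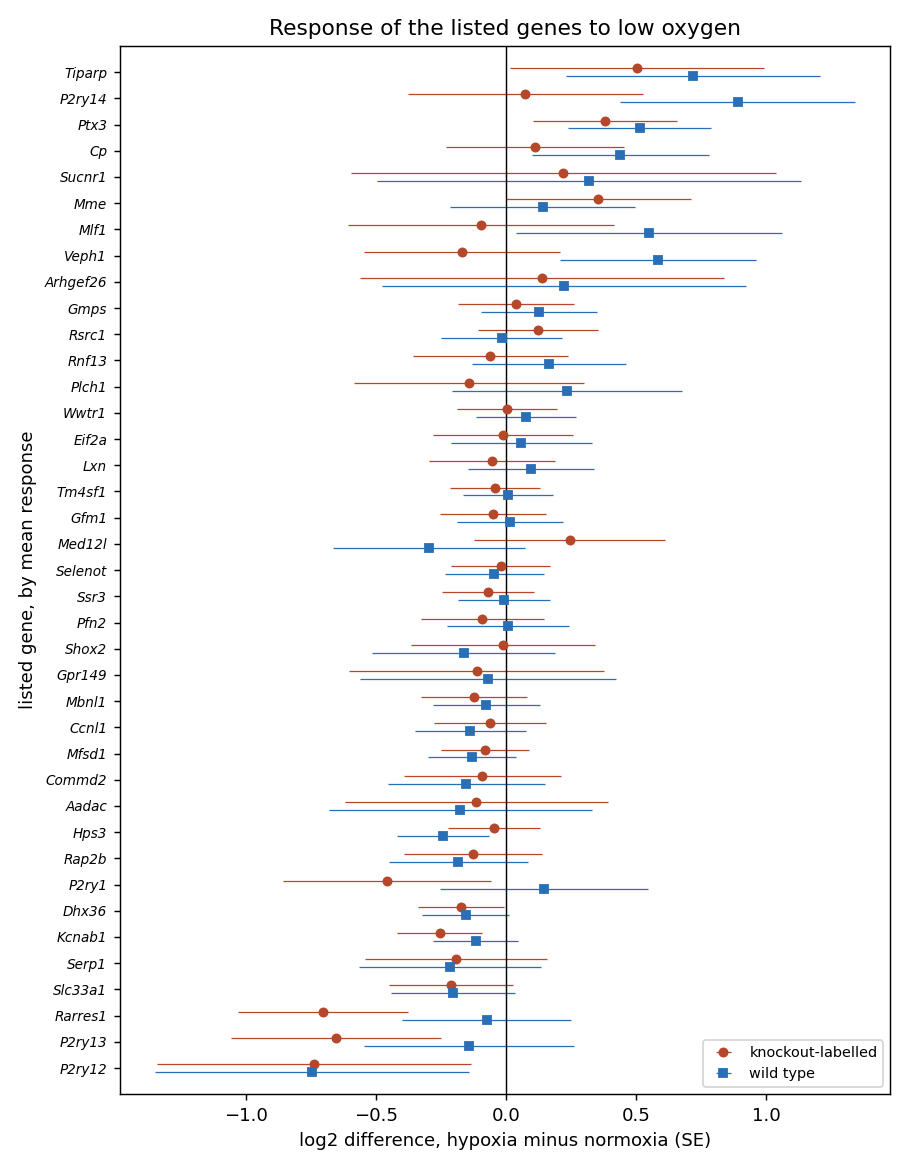
Response of the 39 listed genes to low oxygen, as the log2 difference of hypoxia minus normoxia on the x axis, with limma's SE, for knockout-labelled (red circles) and wild-type cells (blue squares). Genes run down the page by their mean response, from Tiparp at 0.61 to P2ry12 at -0.74, and most bars cross 0.

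Whether the genotypes responded differently was tested as the difference of the responses, knockout-labelled minus wild type. In limma 0 of the 39 listed genes were called, as were 0% of all genes, and 0 listed genes passed an unadjusted p under 0.05, against 2.45% of all genes. The median over the listed genes was -0.06, with values between -0.82 for P2ry14 (SE 0.64) and 0.54 for Med12l (SE 0.52). Siah2 itself responded by 2.08 (SE 0.35) in knockout-labelled cells and by 0.38 (SE 0.35) in wild-type cells, a difference of 1.70 (SE 0.50, 95% interval 0.49 to 2.91, adjusted p = 1.0). None of the 39 listed genes had an estimate of that size, and Erich6 differed by -0.10 (SE 0.80, 95% interval -2.03 to 1.83), a range too wide to place it.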

How the data were processed

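Per the labels' protocols, RNA was purified with RNeasy columns and amplified with Agilent's Low-Input QuickAmp kit. The authors deposited 1 value for each of 62976 spots in 8 samples, taken here as log2 intensity: the log base was read from the values (2.13 to 16.0). That base, the background correction, the normalization and the genome build are not given in the sources used here. Each deposited column had a median of 3.94, and no further normalization was applied. Limma is named in the submitters' processing notes without a version. Array precision is limited by the number of samples.

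Spots were named from the platform annotation, updated through a RefSeq table of GRCm38.p6 that was otherwise used only for gene order. In all 43941 spots had 1 gene, 33704 of them by accession, 463 by synonym and 9774 by the annotation's own symbol, and 19035 had none. Missing values numbered 10. The brightest spot stood for each of 24306 genes, and the dimmest 30% were removed, leaving 17014. The values were fitted in limma 3.58.1 under R 4.3.3 (lmFit and eBayes, 4 group means, 4 residual and 2.25 prior degrees of freedom), with Benjamini-Hochberg adjustment over all genes and a call at an adjusted p under 0.05. The fit was tested on simulated data. Standard errors are limma's moderated ones.

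The listed genes, the marker lists and the tests were chosen with earlier results of these data known. Values in every sample are given for listed genes that were called, did not overlap between groups, had one of the 3 largest genotype or hypoxia differences at either end, or were among the 5 nearest to Siah2 on a side. Of the unlisted genes, up to 2 with the smallest p per genotype comparison are named, and of each other list up to 4. Alternatives were quantile normalization, other filters, the mean over a gene's spots, a variance trend, fits of only the groups compared, replicate and culture blocks, and leaving out 1 sample at a time.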

Additional observations from a re-analysis of the deposited data

How the results depend on the processing

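Over the alternatives, 744 values kept their direction, their side of the threshold or their size, 34 summary values moved, 3 calls were gained and 2 differences reversed. The cause was not tested for any of these unless the alternative itself removes genes or samples. With a variance trend 2 listed genes were called for the mean genotype difference, Kcnab1 and Tm4sf1, among 62 genes in all, and with a crossed replicate block 1 was, Kcnab1, among 453 genes. The replicate block as numbered, and the culture (genotype and number) as a random block with a correlation of 0.431, called 0 listed genes in each of the 7 comparisons. Deviations of same-numbered samples from their group means ran together within a genotype and opposite ways between genotypes. The main fit therefore did not use the numbers as pairs. Across genotypes, the replicate block joined same numbers and the crossed replicate block opposite numbers. The crossed pairing follows the deviations in these same data, so its call is not separate from them. The deviations correlated at 0.338 between knockout-labelled hypoxia and normoxia and 0.308 between wild-type hypoxia and normoxia. Between genotypes the correlation was -0.262 in normoxia and -0.317 in hypoxia. The median over the listed genes for the mean genotype difference was 0.0249 with no filter and 0.0424 with the mean over spots, and that for hypoxia was 0.104 with the dimmest 50% removed. Genes lower without overlap numbered 1 with that filter, under which P2ry13 was not tested, and 1 without Cp and Hps3, a choice made after the gene order was seen.

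Leaving out 1 sample at a time, the genotype medians ran from -0.0122 to 0.139 in normoxia, from -0.0228 to 0.0528 in hypoxia and from -0.000808 to 0.105 for the mean. The medians for hypoxia minus normoxia ran from -0.136 to -0.0303 in knockout-labelled cells, from -0.0563 to 0.0570 in wild-type cells and from -0.0695 to 0.00133 for the mean, and those for the difference of the responses from -0.124 to -0.0213. Genes lower without overlap by genotype numbered 2 to 5, those higher 4 to 5, those higher in hypoxia 1 to 2 and those lower in hypoxia 0 to 1. The Siah2 genotype difference in hypoxia ran from -0.469 to 0.117. It turned positive without wild-type hypoxia replicate 1, at 0.117, and without knockout-labelled hypoxia replicate 2, at 0.0316. With 2 samples a group, dim genes such as P2ry12, P2ry14 and Med12l lie close to the array's low end.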

Other observations

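Mgarp, a mitochondrial protein gene known to respond to hypoxia, lies on chromosome 3 with 55 array genes between it and Siah2. It is within the stated distance but is not on the list. It was chosen after its values were seen. It read 5.95 and 4.86 in knockout-labelled hypoxia, against 2.90 and 3.66 in knockout-labelled normoxia, and 6.01 and 8.72 in wild-type hypoxia, against 4.08 and 3.68 in wild-type normoxia. Every hypoxia sample was above every normoxia sample, with a mean log2 difference of 2.81 (SE 0.62, adjusted p = 0.800 in limma with Benjamini-Hochberg adjustment). Within each oxygen level Mgarp was lower in knockout-labelled cells without overlap, as were 15% of all genes in normoxia and 15.7% in hypoxia. The log2 difference between genotypes was -0.60 (SE 0.87) in normoxia and -1.96 (SE 0.87) in hypoxia, and limma called neither. Over all 8 samples the genotypes overlapped.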
